A study of Arabidopsis thaliana with 12 samples.

Results

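After wounding of another leaf, 121 Arabidopsis thaliana genes were at least 2-fold lower in undamaged leaf 13 of the rosette, while their means in leaf 8 after an electric current stayed closer to those of leaf 8 without current. They were selected on measured values, among 13356 named genes, by a rule on group means of log2 values. The mean of leaf 13 from wounded plants minus that of leaf 13 from unwounded plants had to be at or under -1, and the mean of leaf 8 after current minus that of leaf 8 without current had to be over -0.5. Of the 190 genes at or under -1 after wounding, 121 (63.7%) are members, 62 were at or under -0.5 after current, and 7 that meet both conditions were left out, 5 by name and 2 as plastid-encoded. Both differences chose the members, so for the members they are descriptions with no test, and the words "wounding only" stand for thresholds and not for a tested difference between the responses.

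All plants were of the accession Col-0 and carried no transgene or mutation that the labels name. They grew in soil for 5 weeks, with days of 10 h at 100 µE and 22 °C, nights at 18 °C and a humidity of 70%. In the wounded group forceps were used to damage 40% of leaf 8, at its tip, and leaf 13, itself undamaged, was taken 1 h later. The unwounded group is leaf 13 of plants with no wound. In the current group the petiole of leaf 8 received 40 µA for 10 s, and its blade was taken 1 h later. The no-current group is the blade of a leaf 8 whose petiole held the platinum wire without current. Each of the 4 groups has 3 Affymetrix ATH1 arrays, called here by the replicate numbers of the labels. Per the labels 1 plant grew in each pot, but they do not say whether the replicates of a group came from separate plants or pools, so errors cover the spread between arrays, part or all of which may be technical.

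In a rosette, damage to a leaf sends electrical and other rapid signals through the vasculature to leaves that share vascular connections with it. Those leaves then make jasmonates, hormones that switch on defence genes and restrain growth. Leaves at the positions used here are known as such a connected pair, and current led into a petiole has been used to evoke an electrical signal in a blade that is not wounded. The members are drawn from transcripts that were lower in the distal leaf, and their link to these signals or to jasmonates was not tested.

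The values are log2 RMA expression values. Arrays of the same group correlated with r from 0.991 to 0.996 over all named genes, and no pair of arrays was identical. The 7 measured leaf photosynthesis markers of 48 listed lay over the median of every array, and after wounding 0 of them passed in limma in either direction, with 0 at an unadjusted p under 0.05. Leaves were extracted whole, so fewer cells of a type and less RNA per cell cannot be told apart. All 121 members were measured with 1 probe set each, and that of AT2G43200 is of the kind that can detect related transcripts. Of the members, 22 have a gene name or a named synonym in the reference and 99 are known by locus identifier only; for those no function is given here.

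**Figure D1:**
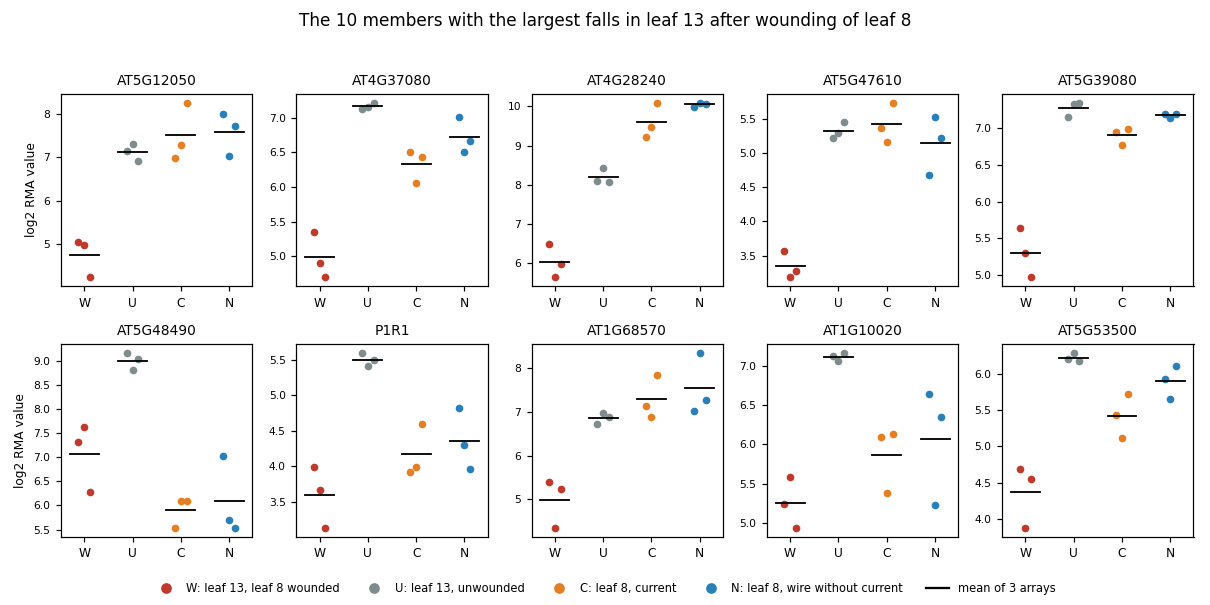
The 10 members with the largest falls in leaf 13, each in its own panel, with log2 RMA values on the vertical axis and the groups wounded (W), unwounded (U), current (C) and no current (N) on the horizontal axis. Points are single arrays and lines are means of 3 arrays; in each panel the 3 wounded arrays sit under the 3 unwounded arrays, whereas the current and no-current arrays of AT5G12050 and AT5G47610 overlap.

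The differences after wounding ran from -2.37 to -1.001 with a median of -1.2, which as a ratio of unwounded to wounded leaves is 2.00 to 5.18-fold with a median of 2.29-fold. The largest was that of AT5G12050. Its values were 5.04, 4.98 and 4.23 on the wounded arrays and 7.15, 7.31 and 6.91 on the unwounded arrays, a difference of -2.37 (SE 0.30, n = 3 each). In leaf 8 it gave 6.98, 7.28 and 8.26 with current and 8.00, 7.02 and 7.71 without. The current arrays lie on both sides of the no-current arrays, and all 6 leaf 8 arrays lie over the 3 wounded arrays. AT4G37080 had 5.35, 4.91 and 4.70 on the wounded and 7.12, 7.15 and 7.21 on the unwounded arrays, a difference of -2.18 (SE 0.17). With current it had 6.50, 6.06 and 6.43, against 7.01, 6.50 and 6.66 without current, so that here the 3 current arrays lay under the 3 no-current arrays, the nearest pair by less than the printed precision.

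AT4G28240 stands for members that were higher in leaf 8 than in leaf 13. It had 6.50, 5.65 and 5.97 on the wounded and 8.09, 8.42 and 8.07 on the unwounded arrays (-2.15, SE 0.21). Leaf 8 had 9.21, 9.48 and 10.08 with current and 10.00, 10.10 and 10.06 without, all over the leaf 13 arrays of either group. AT5G47610 had 3.57, 3.18 and 3.28 on the wounded and 5.22, 5.29 and 5.45 on the unwounded arrays (-1.98, SE 0.19). Its current arrays, at 5.37, 5.16 and 5.74, had a higher mean than its no-current arrays, at 4.67, 5.53 and 5.22, and overlapped them. AT5G39080 had 5.64, 5.30 and 4.97 on the wounded and 7.15, 7.32 and 7.35 on the unwounded arrays (-1.97, SE 0.14). It gave 6.95, 6.77 and 6.99 with current and 7.19, 7.14 and 7.19 without, a small shift with no overlap, of -0.27 (SE 0.14).

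AT5G48490 was low in leaf 8 with and without current. On the wounded arrays it had 7.33, 7.63 and 6.28 and on the unwounded arrays 9.17, 8.81 and 9.05 (-1.93, SE 0.36). With current it gave 5.54, 6.09 and 6.09, and without current 7.03, 5.70 and 5.54, so the wired leaf without current differed from unwounded leaf 13 by -2.92. No-current replicate 1 stood apart from the other two there, and the current arrays lay within the range of the no-current arrays. P1R1, a named gene for which no role is given here, had 3.99, 3.67 and 3.13 on the wounded and 5.60, 5.41 and 5.50 on the unwounded arrays (-1.90, SE 0.23). Its leaf 8 values, 3.93, 3.99 and 4.60 with current and 4.83, 4.30 and 3.96 without, lay under every unwounded array. AT1G10020 and AT5G53500 completed the 10 with AT1G68570, which is described with the transporters, at differences of -1.85 (SE 0.29) and -1.84 (SE 0.19).

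At the other end, 61 of the 121 members lay within 0.2 of the threshold of -1. The last members inside it were AT1G61350 at -1.001, AT1G54120 at -1.002 and TRM25 at -1.004, and the first genes outside it were AT1G78020 at -0.996, AT3G04210 at -0.99 and AT5G54660 at -0.98. At the current threshold the last members inside were AT5G57760, AT5G08520 and AT5G14410, each at -0.49, and the first genes outside were AT1G56720 at -0.50, AT2G30930 at -0.51 and AT5G44410 at -0.52. Neither threshold falls in a gap of the values. In 121 of 121 members the 3 wounded arrays lay under the 3 unwounded arrays, as they did for 19.7% of all named genes, and limma called 121 of 121 lower, against 8.42% of all named genes (14.2% in either direction). The rule used this contrast, so nothing is read from either count.

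**Figure D2:**
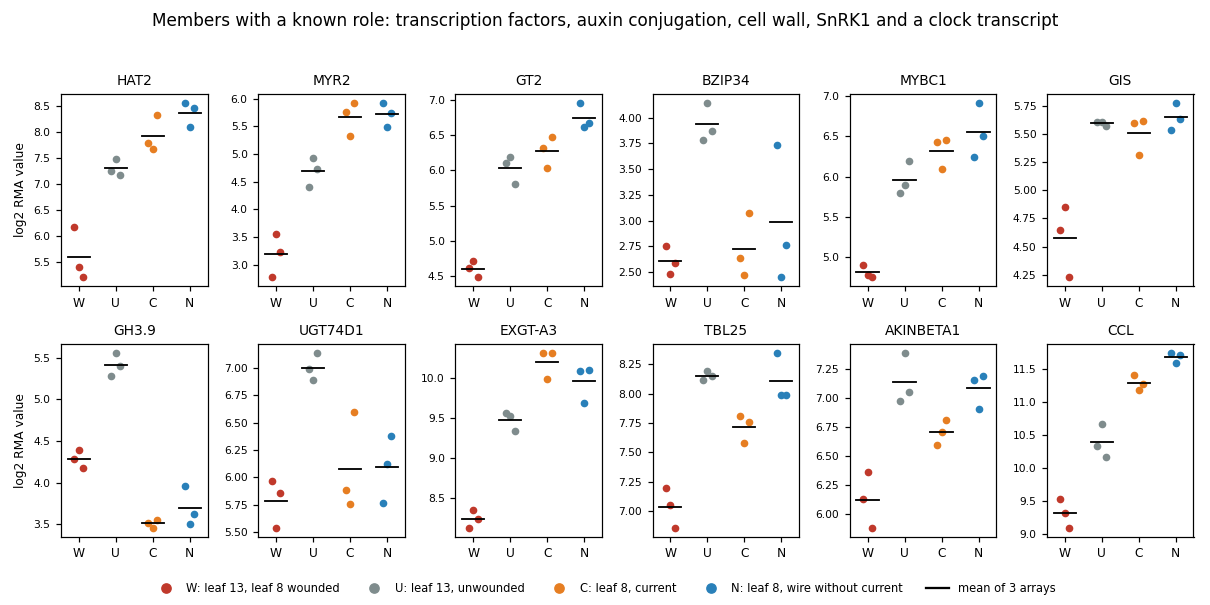
Values of 12 members with a known role, 1 per panel, as log2 RMA values by group: wounded (W), unwounded (U), current (C) and no current (N). Points are arrays and lines are means of 3; the leaf 8 arrays of BZIP34, GH3.9 and UGT74D1 lie under their unwounded arrays, while the no-current arrays of HAT2, MYR2 and CCL lie over them.

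Among the named members were 6 transcription factors, with differences after wounding from -1.71 to -1.02. HAT2, an auxin-inducible homeodomain-leucine zipper factor, had 6.17, 5.40 and 5.21 on the wounded and 7.25, 7.49 and 7.17 on the unwounded arrays, a difference of -1.71 (SE 0.22). With current it had 7.79, 7.67 and 8.33, against 8.56, 8.09 and 8.46 without current, a difference of -0.44 (SE 0.22) that comes close to the rule's limit. Current replicate 3 lay among the no-current arrays and the other two lay under them. MYR2, a MYB-related factor that acts on flowering time, had 2.78, 3.55 and 3.24 on the wounded and 4.41, 4.93 and 4.74 on the unwounded arrays (-1.50, SE 0.20). Its leaf 8 values were 5.76, 5.32 and 5.92 with current and 5.93, 5.48 and 5.75 without, and they overlapped almost fully (-0.05, SE 0.20).

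GT2, a trihelix DNA-binding protein, had 4.63, 4.72 and 4.49 on the wounded and 6.10, 6.19 and 5.81 on the unwounded arrays (-1.42, SE 0.14). It had 6.31, 6.03 and 6.48 with current and 6.96, 6.61 and 6.67 without, so its current arrays did lie under its no-current arrays (-0.47, SE 0.14). BZIP34, a leucine zipper factor known from pollen wall patterning, had 2.75, 2.48 and 2.58 on the wounded and 3.78, 4.15 and 3.87 on the unwounded arrays (-1.33, SE 0.25). In leaf 8 it had 2.64, 2.47 and 3.07 with current and 3.73, 2.45 and 2.77 without, and all 6 arrays lay under the unwounded arrays, no-current replicate 1 by little. Its means of 2.61 on the wounded and 2.98 on the no-current arrays were near the lower quartiles of all named genes, 2.68 and 2.63. Whether a further fall after current could have been seen was not tested. MYBC1, a negative regulator of freezing tolerance, had 4.91, 4.78 and 4.75 on the wounded and 5.79, 5.90 and 6.19 on the unwounded arrays (-1.15, SE 0.16). GIS, a zinc finger factor that promotes trichome formation on shoots through gibberellin, had 4.65, 4.85 and 4.23 on the wounded and 5.60, 5.60 and 5.57 on the unwounded arrays (-1.02, SE 0.14). MYBC1 had 6.43, 6.09 and 6.45 with current and 6.25, 6.92 and 6.51 without. GIS had 5.60, 5.31 and 5.62 with current and 5.54, 5.78 and 5.63 without. Neither gene's current arrays separated from its no-current arrays.

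Joining active auxin to an amino acid or to a sugar takes it out of use, and 2 members code for enzymes known or presumed to do so. The other measured genes with a GH3 name, GH3.1 at -0.08, GH3.17 at -0.07 and GH3.3 at 0.76 after wounding, did not pass in limma. GH3.9, listed as a putative amido synthetase for indole-3-acetic acid, had 4.28, 4.39 and 4.18 on the wounded and 5.28, 5.56 and 5.40 on the unwounded arrays (-1.13, SE 0.12). UGT74D1, which glucosylates auxins, had 5.97, 5.54 and 5.85 on the wounded and 6.99, 6.88 and 7.13 on the unwounded arrays (-1.21, SE 0.20). Both were low in the wired leaf: GH3.9 had 3.52, 3.46 and 3.56 with current and 3.97, 3.51 and 3.62 without, every array under its wounded arrays. UGT74D1 had 5.89, 5.75 and 6.59 with current and 5.77, 6.13 and 6.38 without, all under its unwounded arrays and overlapping its wounded arrays.

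The cell wall gave EXGT-A3 and TBL25. EXGT-A3, the xyloglucan endotransglucosylase also listed as XTH27, cuts and rejoins the xyloglucan chains that tie cellulose fibrils. It had 8.12, 8.35 and 8.24 on the wounded and 9.55, 9.52 and 9.34 on the unwounded arrays (-1.23, SE 0.13). After current it leaned the other way, with 10.30, 9.99 and 10.31 against 10.08, 9.69 and 10.10 without current (0.24, SE 0.13, the arrays overlapping). TBL25, of the family that acetylates wall polysaccharides, had 7.20, 7.05 and 6.86 on the wounded and 8.12, 8.20 and 8.15 on the unwounded arrays (-1.12, SE 0.12). With current it had 7.81, 7.58 and 7.76, all under the 8.34, 7.99 and 7.99 of the leaves without current (-0.39, SE 0.12).

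AT1G68570, listed as NPF3.1, a transporter of the nitrate and peptide family that carries gibberellin and nitrite, was the named member with the second largest difference, after P1R1. It had 5.38, 4.34 and 5.22 on the wounded and 6.73, 6.98 and 6.89 on the unwounded arrays (-1.88, SE 0.32), and 7.13, 6.89 and 7.84 with current against 7.03, 8.35 and 7.28 without. No-current replicate 2 stood over the other leaf 8 arrays, and the groups overlapped. AKINBETA1, a regulatory subunit of SnRK1, the kinase that answers low energy, had 6.13, 6.36 and 5.88 on the wounded and 6.98, 7.39 and 7.05 on the unwounded arrays (-1.01, SE 0.14). Its values of 6.60, 6.71 and 6.81 with current lay under those of 7.16, 6.91 and 7.19 without (-0.38, SE 0.14). BRH1, a RING-H2 protein that responds to brassinosteroid, had 7.03, 6.19 and 6.49 on the wounded and 7.64, 7.79 and 7.49 on the unwounded arrays (-1.07, SE 0.16), and 7.71, 7.78 and 7.74 with current against 7.65, 7.70 and 7.86 without. For BRH1 the leaf 8 groups were level, with a difference of 0.01 (SE 0.16).

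CCL is a transcript under clock control whose stability changes over the day. It had 9.52, 9.31 and 9.09 on the wounded and 10.33, 10.66 and 10.17 on the unwounded arrays (-1.08, SE 0.13). Leaf 8 had 11.41, 11.18 and 11.27 with current and 11.74, 11.60 and 11.71 without (-0.40, SE 0.13), so the current and no-current arrays of CCL did not overlap, and all 6 lay over its unwounded arrays. The 4 named members of metabolism were the cytochromes P450 CYP71B29 and CYP71B24, the glucosyltransferase UGT85A5 and ALN, the allantoinase of purine breakdown, with differences after wounding from -1.24 to -1.05. UGT85A5 had 4.76, 4.74 and 4.48 on the wounded and 5.75, 5.96 and 5.75 on the unwounded arrays, and 6.13, 5.97 and 5.87 with current against 6.52, 6.27 and 6.62 without (-0.48, SE 0.12). The other three overlapped between current and no current. IQD24, a calmodulin-binding protein, TRM25, of the family that recruits TON1 to microtubules, and AT3G52060, listed as an N-acetylglucosaminyltransferase-like protein, had differences of -1.10 (SE 0.12), -1.004 (SE 0.20) and -1.02 (SE 0.18).

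**Figure D3:**
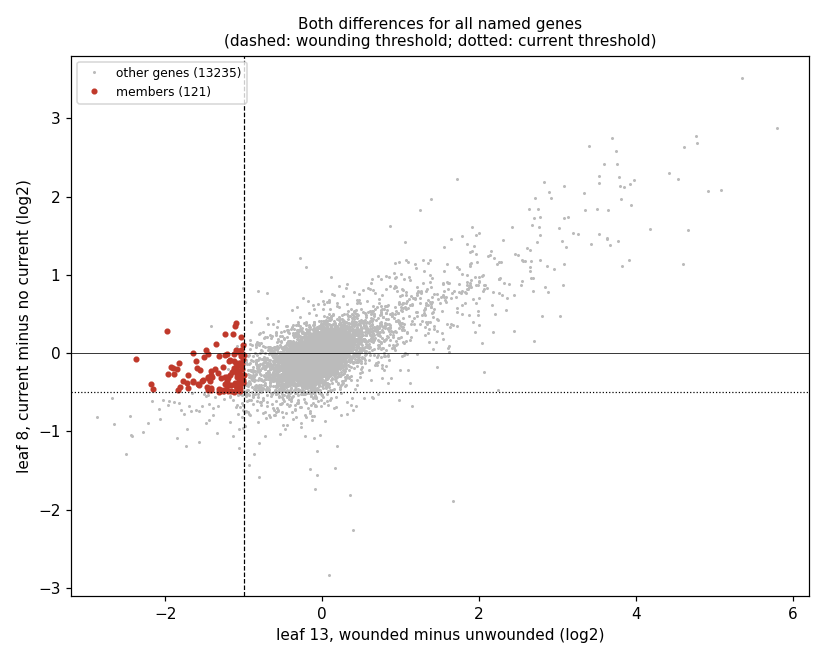
Each point is a named gene, with its wounded minus unwounded difference in leaf 13 on the horizontal axis and its current minus no-current difference in leaf 8 on the vertical axis, both in log2. The 121 members (red) fill the corner set by the 2 thresholds (dashed and dotted lines) and lie mostly under 0 on the vertical axis, with a median of -0.28.

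The members' current minus no-current differences in leaf 8, which the rule bounds, ran from -0.49, where the rule ends, to 0.39, with a median of -0.28, and 108 of 121 (89.3%) were below 0. Over all named genes the median was -0.02 and 55.8% were below 0. Of the members, 66 were at or under -0.25, and the 62 genes at or under -1 after wounding that the rule sent to the other side had a median of -0.70. In 28 of 121 members (23.1%) the 3 current arrays lay under the 3 no-current arrays, as in 9.59% of all named genes, and in 1 member they lay over them, as in 7.34%. Limma called 4 of 121 lower, AT1G02300, AT1G25550, AT5G08520 and UGT85A5, against 1.58% of all named genes, and 0 higher, against 2.38% (3.96% in either direction). At an unadjusted p under 0.05 the numbers were 42 lower and 1 higher, against 7.92% and 6.24% of all named genes. The rule bounds this contrast from below, so nothing is read from these counts. The 211 genes behind the 1.58% were 324 without current replicate 1, 79 without current replicate 2, 96 without no-current replicate 1 and 116 without no-current replicate 3, and the 318 behind the 2.38% were 187 without current replicate 2.

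The 5 members with the highest current minus no-current differences were AT1G60590, AT2G15020, AT5G47610, EXGT-A3 and AT5G03380. AT1G60590 had 4.93, 5.30 and 4.68 with current and 4.44, 5.08 and 4.25 without (0.39, SE 0.19), with 5.68, 5.38 and 5.74 on the wounded and 6.63, 6.64 and 6.82 on the unwounded arrays. AT2G15020 had 7.00, 7.26 and 8.30 with current and 6.67, 7.49 and 7.36 without (0.35, SE 0.31), with 4.94, 4.17 and 4.12 on the wounded and 5.34, 5.86 and 5.36 on the unwounded arrays. Current replicate 3 of AT2G15020 lay over all its other arrays, and the leaf 8 groups of both genes overlapped. AT5G47610 and EXGT-A3 are described above. AT5G03380 is the 1 member with all current arrays over all no-current arrays, at 6.74, 6.56 and 6.59 against 6.34, 6.46 and 6.36 (0.24, SE 0.11), and with 5.91, 6.14 and 5.79 on the wounded and 7.22, 7.04 and 7.00 on the unwounded arrays.

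At the low end, AT5G57760, AT5G08520, AT5G14410, AT5G24570 and UGT85A5 had differences from -0.49 to -0.48. AT5G08520 had 6.81, 6.90 and 6.44 with current and 7.28, 7.08 and 7.27 without, against 6.38, 6.07 and 6.05 on the wounded and 7.20, 7.39 and 7.28 on the unwounded arrays. AT5G24570 had 7.39, 6.98 and 6.93 with current and 7.82, 7.56 and 7.40 without, against 6.76, 6.68 and 6.67 on the wounded and 7.70, 7.65 and 7.91 on the unwounded arrays. In both, current and no-current arrays did not overlap, and the current leaves stayed over the wounded-plant leaves.

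**Figure D4:**
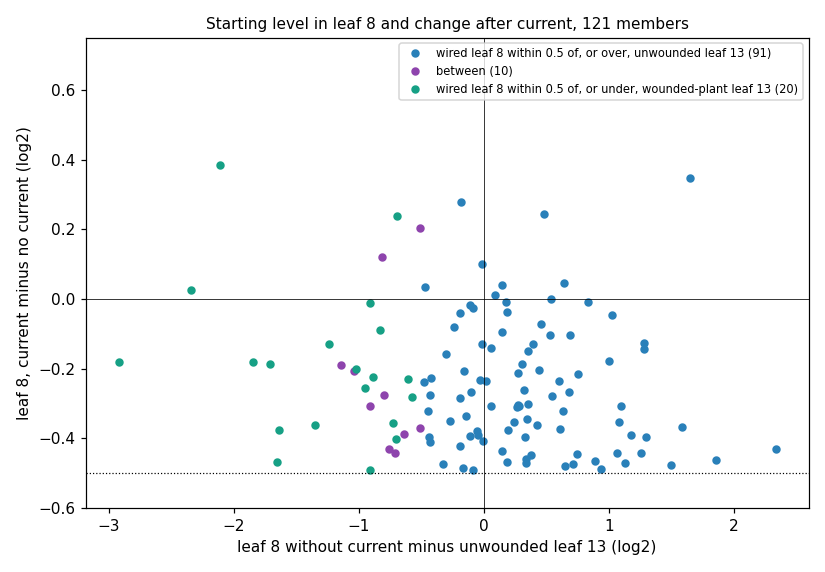
The 121 members by their level in leaf 8 without current minus that in unwounded leaf 13 (horizontal axis, log2) and their current minus no-current difference (vertical axis, log2); the dotted line is the rule's limit. Colours give the level in the wired leaf: 91 members within 0.5 of or over the unwounded level, 10 between, and 20 within 0.5 of or under the level of leaf 13 from wounded plants.

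To show where each member stood in leaf 8 without current, its level in the wired leaf was set beside both leaf 13 groups. Leaf position, wire and experiment differ together in this comparison and cannot be told apart, and the leaf 13 arrays entered the rule, so it is a description. The no-current minus unwounded difference had a median of 0.06 over the members and ran from -2.92 to 2.34. In 91 of 121 members (75.2%) the no-current mean was within 0.5 of the unwounded mean or over it. In 20 (16.5%) it was within 0.5 of the wounded mean or under it, and 10 (8.26%) lay between. Of the 62 genes at or under -1 after wounding and at or under -0.5 after current, 56 (90.3%), 2 (3.23%) and 4 were in these classes in the same order. The no-current mean was lower than the unwounded mean by 0.5 or more in 30 members, in 6 of the 62, and in 1269 of all 13356 named genes. It was higher by 0.5 or more in 32 members, in 27 of the 62, and in 1394 of all named genes. On both sides the share was larger among the members than among all named genes. The unwounded arrays entered the rule, so nothing is read from these counts. The median difference after current was -0.30 in the first class of members, -0.21 in the second and -0.29 in the third, and 83, 17 and 8 of them were below 0.

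All 6 leaf 8 arrays lay over all 3 wounded arrays in 96 members, against 19.1% of all named genes, and over all 3 unwounded arrays in 26, against 15.8%. They lay under all unwounded arrays in 38, against 18.2%, and under all wounded arrays in 4, AT1G10640, AT1G60590, AT1G67750 and GH3.9, against 16.7%. The rule chose genes with low wounded and high unwounded values, which shapes these counts, so nothing is read from them. AT1G10640 had 2.94, 2.60 and 2.89 without current against 5.14, 5.13 and 5.19 in unwounded leaf 13, a difference of -2.35, and 2.90, 2.93 and 2.67 with current. With or without current, AT1G10640 was thus lower in leaf 8 than on any leaf 13 array, and its room for a further fall was not tested. AT3G14760 had 3.73, 3.29 and 3.41 without current against 5.58, 5.06 and 5.32 in unwounded leaf 13 (-1.84). AT1G67750 had 5.38, 5.51 and 4.91 against 6.87, 6.91 and 6.99 in the same order, a difference of -1.66.

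Higher in the wired leaf were AT4G27450, AT4G28240, AT2G15020, AT3G03870 and AT5G41900. AT4G27450 had 8.31, 8.39 and 8.68 without current against 6.18, 6.69 and 5.51 in unwounded leaf 13, a difference of 2.34. It had 7.66, 7.88 and 8.56 with current, while the wounded arrays had 4.65, 4.99 and 4.34. AT3G03870 had 7.30, 7.24 and 7.49 without current against 5.75, 5.93 and 5.60 in unwounded leaf 13 (1.59), and AT5G41900 had 7.65, 7.35 and 7.69 against 6.01, 6.07 and 6.11 in the same order (1.5). For these genes the current arrays, too, lay over the unwounded arrays. Limma called 32 members lower and 36 higher in the wired leaf, against 16.2% and 16.6% of all named genes (32.9% in either direction). With each array centred on its median, the counts over all named genes were 3153 lower and 1693 higher, against 2168 and 2223 with the values as deposited, and the median of all named genes moved to -0.12, against -0.02. Of the 22 members described by name, 17 were in the first class, P1R1 lay between, and BZIP34, UGT74D1, GH3.9 and TRM25 were at or under the wounded level.

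**Figure D5:**
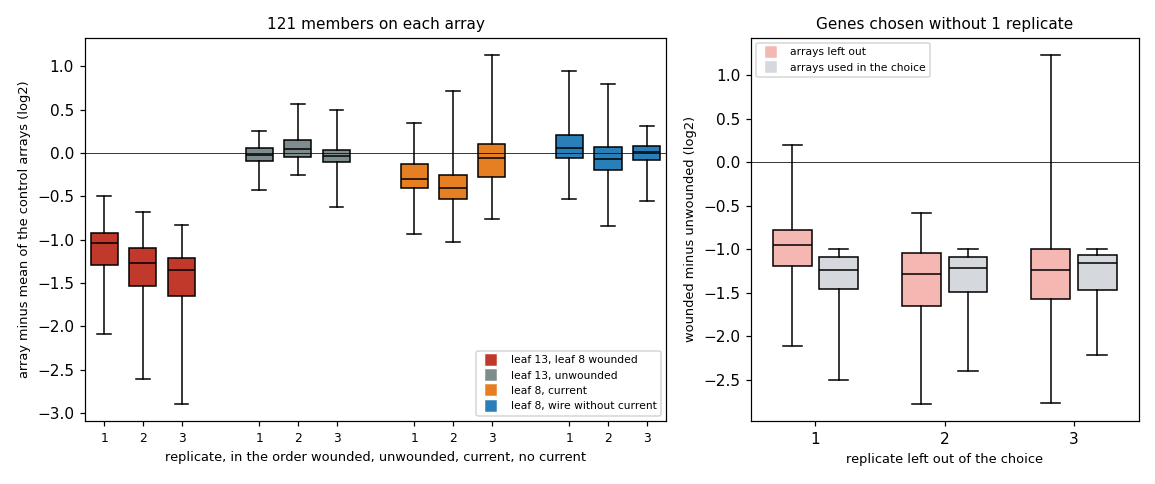
Left, the 121 members on each array as the log2 value minus the mean of the matching control group (unwounded for leaf 13, no current for leaf 8), with boxes for quartiles, lines for medians and whiskers for the full range. Right, wounded minus unwounded differences of genes chosen without 1 replicate, in the arrays left out and in the arrays used; the medians in the left-out arrays were -0.96, -1.28 and -1.24.

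Most members lay on the same side of their group mean on some arrays. The rule used the means of these arrays, and its limit after current keeps genes that were high on a current array. The choice therefore shapes the counts for the members, and nothing is read from them about the members. Set against the unwounded mean, their median was -1.04 on wounded replicate 1, -1.27 on replicate 2 and -1.35 on replicate 3. On wounded replicate 1, 106 of 121 lay over their own group mean, against 49.6% of all named genes, with a median deviation of 0.17, and 291 of the 337 genes at or over 1 after wounding lay under theirs, with a median deviation of -0.18. The pattern is not particular to the members. Of the 62 genes that were also at or under -0.5 after current, 5 lay under their group mean there, with a median deviation of 0.25. So the wounded array with the smaller falls was also the one with the smaller rises. On the current arrays the members' median against the no-current mean was -0.29, -0.40 and -0.06 for replicates 1, 2 and 3. On current replicate 3, 98 of 121 lay over their group mean, against 49.0% of all named genes, and on current replicate 2, 101 lay under it, against 54.0%. Of the same 62 genes, 29 lay under their group mean on current replicate 3 and 53 on current replicate 2. The 120 genes at or over 1 after current had a median of 0.49 over their group mean on current replicate 2. Without current replicate 3 the members' median after current was -0.36 and 23 of them would not have met the rule. Without current replicate 2 it was -0.20 and 1 would not have.

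Since the wounding difference chose the members, the choice was repeated without the wounded and unwounded arrays of 1 replicate number, and the left-out pair was read for the genes so chosen. The numbers only name the arrays here. Without replicate 1 the rule chose 150 genes, of which 119 are members, and their median was -0.96 in the left-out pair, against -1.24 in the arrays used. Without replicate 2 it chose 105 genes (99 members), with medians of -1.28 and -1.22 in the same order, and without replicate 3 117 genes (102 members), with -1.24 and -1.16. In the left-out arrays 149 of 150, 105 of 105 and 115 of 117 were below 0, against 58.4%, 53.7% and 58.0% of all named genes. At or under -1 were 62 (41.3%), 84 (80.0%) and 88 (75.2%), against 0.913%, 2.10% and 1.71% of all named genes. The 3 genes that were not below 0 were AT5G02540 at 0.20, PDF1.2b at 1.23 and AT1G64360 at 0.09; PDF1.2b, a defensin, had been at -2.09 in the arrays used. Every turn draws on the same 6 leaf 13 arrays and the same leaf 8 arrays, so this repeats the measurement over arrays and not in a new experiment.

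Pathway lists and gene families place the members among genes the rule did not choose. Of 16 measured auxin genes of 205 listed, limma called 3 lower and 1 higher after wounding, where 8.42% of all named genes were called lower and 5.81% higher. The lower ones were the member GH3.9, the repressor gene IAA29 and YUC6, of auxin synthesis, at -0.42 (SE 0.10, limma adjusted p = 0.00738). IAA29 meets the wounding condition too, at -2.68, with -0.57 after current. The repressor gene IAA18 rose by 1.91 (SE 0.15, limma adjusted p = 6.48e-07). The remaining 12, among them GH3.3 at 0.76 (SE 0.31) and WES1 at -0.67 (SE 0.25), did not pass, and the median of all 16 was -0.07, against -0.03 for all named genes. Without wounded replicate 3 the list had 2 higher genes, and without the dimmest 50% of genes 1 lower.

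Of 31 measured genes of wall loosening and pectin, of 95 listed, 4 were lower and 5 higher. EXGT-A3 is the member, the expansins EXPA8 and EXPB1 also met the wounding condition, and the pectin methylesterase gene ATPMEPCRB rose by 1.62 (SE 0.22, limma adjusted p = 1.01e-04). The list's median was -0.07. Its higher genes were 2 without wounded replicate 3 or unwounded replicate 3 and 3 without unwounded replicate 1. Of 12 measured genes of nitrate and peptide transport, of 50 listed, the member AT1G68570 was the 1 lower gene and 4 were higher. The glucosinolate transporter genes GTR1 and GTR2 rose by 2.72 (SE 0.21) and 1.39 (SE 0.14, limma adjusted p = 3.49e-07 and 5.86e-06), and the list's median was 0.17, with 2 lower genes without wounded replicate 1. HAT2 was the 1 gene called of 3 measured light and shade genes of 99 listed, with FHL at 0.32 (SE 0.22) and HYH at 0.51 (SE 0.21). Without current replicate 3, which is part of the fit, 1 of these genes was called higher.

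Of 6 measured cytokinin genes, of 74 listed, the response regulators ARR15 and RR16 were called lower, at -0.70 (SE 0.18, limma adjusted p = 0.0127) and -0.68 (SE 0.19, limma adjusted p = 0.0252). ARR15 lost its call without wounded replicate 3 or unwounded replicate 1 (limma adjusted p = 0.0750 and 0.0731), and RR16 without any of 5 leaf 13 arrays, wounded replicates 2 and 3 and unwounded replicates 1, 2 and 3 (0.0632 to 0.120). Of 16 measured sugar and starvation genes, of 100, 3 were lower and 3 higher, and the 3 lower were SWEET2, SWEET13 and SWEET11, of which only SWEET2 met both conditions of the rule. Of 3 measured gibberellin genes, of 33, the receptor gene GID1B rose by 1.03 (SE 0.15, limma adjusted p = 1.94e-04) and 0 were lower, with 1 lower gene without wounded replicate 1 and 2 higher without unwounded replicate 2. TCP15, a factor of the TCP growth regulators and the 1 measured of 98 listed, fell by 0.73 (SE 0.15, limma adjusted p = 0.00334). Of 4 measured ERF factors, of 72, ORA47 was higher and AT5G61590 lower, with 2 lower without current replicate 1 or 2, and AT5G61590 with AT4G13840 gave the 2 lower of 5 measured cuticle genes of 73. AT4G13840, at -0.42 (SE 0.13, limma adjusted p = 0.0350), lost its call with median centring and without any 1 of 5 leaf 13 arrays, wounded replicates 2 and 3 and unwounded replicates 1, 2 and 3 (0.0713 to 0.154).

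Markers of leaf cell types gave few calls. Of 4 measured stomatal markers, of 32, STOMAGEN fell by 0.63 (SE 0.18, limma adjusted p = 0.0276), a call lost without wounded replicate 2 or 3 or unwounded replicate 1 or 3 (0.0710 to 0.125). Of 3 measured vascular markers, of 36, SWEET11 was at -0.48 (SE 0.15, limma adjusted p = 0.0477), a call lost with median centring (0.0871), without no-current replicate 2 (0.0536) and without any single leaf 13 array (0.0600 to 0.155). The log2 of the summed level of the stomatal markers was 6.86 to 7.21 on the wounded and 7.35 to 7.70 on the unwounded arrays, and that of the vascular markers 8.20 to 8.39 and 8.69 to 8.79 in the same order, so neither overlapped. Each sum is carried by its brightest gene, STOMAGEN or SWEET11, and the other measured markers, MUTE at 0.16, FMA at -0.32, SPCH at 0.08, IRX15 at 0.02 and GUT2 at -0.10, did not pass. The median difference was -0.12 over the stomatal and -0.10 over the vascular markers. In leaf 8 the stomatal sums were 6.21 to 6.42 with current and 6.15 to 6.75 without, and the vascular sums 8.995 to 9.53 with current and 9.06 to 9.55 without, overlapping in both cases. The sum of the dividing cell markers was 6.61 to 6.80 on the wounded and 6.63 to 7.00 on the unwounded arrays, and limma called 0 of these 4, of 45, with 0 at an unadjusted p under 0.05. The part of cell makeup in the members' values was not tested. Of the single measured trichome, clock and brassinosteroid genes, TRY, GI and BRL1, 0 passed in limma after wounding, with 0 at an unadjusted p under 0.05.

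Families could be matched only through named synonyms in the reference, which leaves out most loci known by identifier alone. Over all named genes 8.42% were called lower and 5.81% higher after wounding. Of 24 such cytochromes P450, of 244 listed, 7 were lower and 2 higher, and 2 are members. Of 43 glycosyltransferases of the UDP type, of 52, 10 were lower and 8 higher, and 2 are members, UGT74D1 and UGT85A5. Of 12 RING or U-box genes, of 75, 1 was lower, the member BRH1, and 4 were higher. The 2 measured genes matched as MYB, of 147, were lower, and MYBC1 is the member. The MYB-related MYR2 was not matched. The 7 lower cytochromes P450 were 3 or 4 with median centring and without wounded replicate 2 or 3 or unwounded replicate 1, 2 or 3. In the other families no matched gene was a member. HAT2 and IQD24 were not matched to the homeobox and calmodulin families, so a family without a matched member may still hold members.

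The genes whose values over the 12 arrays were most like those of AT5G12050 were AT1G69160 (Pearson r = 0.980), IAA29 (0.979), AT4G33666 (0.973), AT5G11090 (0.972) and AT1G51400 (0.972). The 12 arrays fall into 4 groups, so r describes mainly the order of the group means, and AT1G51400, with -0.30 after wounding, is like AT5G12050 in order and not in size. AT1G69160, AT4G33666 and AT5G11090 are members. AT1G69160 had 4.12, 3.76 and 3.61 on the wounded and 5.44, 5.60 and 5.38 on the unwounded arrays, and 5.90, 5.85 and 6.29 with current against 6.25, 5.73 and 6.05 without, a difference after wounding of -1.64 (SE 0.16) and after current of -0.00056 (SE 0.16). AT1G21050 and AT1G21060 were the 1 pair of members that are neighbours among the genes of the reference, at -1.10 (SE 0.17) and -1.09 (SE 0.14) after wounding.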

How the data were processed

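Transcripts were measured on 12 Affymetrix ATH1 arrays, 3 in each of 4 groups taken from the labels. The deposited values are log2 RMA values made by the authors, per the submitters' processing notes, in Affymetrix Power Tools. Versions, genome build and log base are not given in the sources used here. The values, from 1.46 to 13.3, fit a log2 scale, and RMA makes one. RMA subtracts background, gives all arrays the same distribution of intensities and combines each probe set's probes, so a change shared by most transcripts is removed and differences of dim genes are understated. No further normalization, filter or pseudocount was applied. The number of arrays limits the precision: the median SE of a difference was 0.157 for members and 0.113 for all named genes, and the smallest exact p for 3 against 3 arrays is 0.1.

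Genes were named from the platform's probe-gene table, in which 13513 of 22810 probe sets have 1 gene, 503 have several and 8730 others are not named; 64 are controls. Averaging the probe sets of 146 genes left 13356, of which 13286 matched the reference gene table (assembly TAIR10.1). A symbol is carried by 16.5% of the members and 11.5% of all named genes. The members, gene lists and tests were chosen with earlier results of these data known.

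Tests were run in limma 3.58.1 under R 4.3.3, with 1 mean per group over all 12 arrays, 8 residual and 6.31 prior degrees of freedom, two-sided tests, Benjamini-Hochberg adjustment over 13356 genes and a threshold of 0.05. The SE is limma's. On simulated data for the wounding comparison, with 13356 genes, the fit recovered 62%, 94%, 98% and 100% of genes changed by -0.5, -1, -1.5 and -2, with 9 false among 186 calls. The simulation lowered 50 genes by each amount, raised none, and used noise independent between genes. In the data 14.2% of genes were called, in both directions, so these rates need not hold there. Gene lists were matched by symbol or synonym and are described by counts and medians. Named were the 10 members lowest after wounding, the 5 highest and 5 lowest after current and in the wired leaf, the 3 on each side of each threshold, up to 4 members and 3 other called genes per list, neighbouring members, and the 5 genes most like AT5G12050. The remaining members with a gene name were added after their values were seen, as were the members called after current, those with leaf 8 arrays under the wounded arrays, list genes given beside a count, and the genes that were not lower in left-out arrays. Promoter sequences were not used here. Replicate numbers did not pair the arrays of the compared groups.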

Additional observations from a re-analysis of the deposited data

How the results depend on the processing

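The number of members is set by the thresholds: 218 genes with a wounding threshold of -0.8, 60 with -1.2, 55 with a current threshold of -0.25 and 13 with 0. Under quantile normalization it was 110 (106 shared), with median centring 108 (105 shared), with group medians 110 (92 shared), without the dimmest 25% or 50% of genes 121 or 109, and without 1 array 102 to 147. In all 12 choices without 1 array, 49 of the 121 were chosen. The members' median differences without 1 array ran from -1.30 to -1.14 after wounding, -0.36 to -0.20 after current and 0.03 to 0.08 in the wired leaf against unwounded leaf 13, where the other alternatives widened the range to -0.04 to 0.15. Of all 121 members, the class at or over the unwounded level held 84 to 93 and the class at or under the wounded level 18 to 26; of the 109 left without the dimmest 50% of genes, they held 87 and 14. With the other normalizations and without 1 leaf 13 array, no member changed direction after wounding, and -0.83 was the highest difference. In every member the wounded arrays lay under the unwounded arrays, so leaving out 1 array could not change the direction, and nothing is read from that.

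Over all named genes, those called lower after current numbered 331 with array weights, 81 with the comparison fitted alone and 79 to 324 without 1 array, against 211. Those called higher numbered 210 with the comparison fitted alone and 187 to 404 without 1 array, against 318. After wounding, 754 to 1198 were lower and 620 to 806 higher without 1 array, and in the wired leaf 1776 to 2235 and 1800 to 2280. The cause of these moves was not tested, and a fit without 1 array also rests on fewer arrays. Replicate numbers did not pair the arrays: same-numbered arrays had deviations that correlated with r from -0.07 to 0.04. With the replicate block, 1021 genes were lower and 750 higher after wounding, 221 and 326 after current, and 2080 and 2151 in the wired leaf; of the list genes named, AT4G13840 and SWEET11 lost their calls (limma adjusted p = 0.0592 and 0.118), while the gibberellin list had 1 lower gene and the ERF list 2. Chosen after seeing the data were 2 checks: the members below 0 after current numbered 98 to 110 of 121, or 97 of the 109 left without the dimmest 50% of genes, and the median of the 3 left-out medians was -1.26 and -1.23 under the other normalizations. The arrays' lower end limits dim members, whose falls are understated.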

Other observations

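Outside the named genes, 9233 probe sets carry no gene or several in the table used here, and 126 of them (1.36%) met the same conditions on wounding and current, against 0.958% of the named genes. Of these, 1 has several genes and the others are not named. Their median difference was -1.31 after wounding and -0.24 after current, and 106 were below 0 after current. In the wired leaf without current, 94 were at or over the unwounded level and 17 at or under the level of leaf 13 from wounded plants. The 3 lowest were at -2.28, -2.12 and -2.08 after wounding, with -0.21, 0.11 and 0.09 after current. The genes behind these probe sets were not analysed here.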
